A study of Mus musculus with 12 samples.

Results

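Bile duct organoids grown from the hilum of the liver were compared with organoids grown from its periphery, in the same mice and over both genotypes of the study. The comparison takes in 12 of the 12 libraries of the series, as 6 hilar and 6 peripheral cultures that form 6 pairs. Members were chosen from the labelled liver region, and each pair from the labelled mouse number. The reading then centres on genes that differ in the same direction in the 3 pairs of each genotype.

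The cultures were intrahepatic cholangiocyte organoids, hollow balls of bile duct epithelium kept as lines in Matrigel, a basement membrane gel. All were untreated and RNA was taken at passage 5. The 3 WT mice (Jag1 +/+) were 1221, 1223 and 1225, and the 3 Ndr mice (Jag1 Ndr/Ndr) were 1219, 1220 and 1224. Each mouse gave 1 hilar and 1 peripheral line, so a pair shares its animal, genotype and derivation date, and each group of genotype and region held 3 lines. The age of the mice is not given in the sources used here. Values of single cultures are listed below in the order 1221, 1223 and 1225 for WT and 1219, 1220 and 1224 for Ndr.

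The bile duct tree runs from small ductules at the edge of each liver lobe to large ducts that leave at the hilum, and cholangiocytes along it differ in size, secretion and mucus. Jag1 encodes Jagged1, a ligand of the Notch receptors, whose signal directs liver progenitors to the bile duct fate. The Ndr allele is a missense change in this ligand, and mice homozygous for it model Alagille syndrome, an inherited shortage of bile ducts. The design asks what epithelium of the 2 regions still expresses differently once it has been grown outside the liver.

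Library totals ran from 6708822 to 16030880 counts, and 15014 genes were tested. The 20 cholangiocyte identity genes summed to between 14012 and 24006 CPM (counts scaled to the library total) in each library. Marker lists of fibroblasts and stellate cells, endothelium and immune cells summed to at most 57, 20.6 and 40.6 CPM. The hepatocyte list, most of it Trf, summed to 429 to 5806 CPM, the mesothelial and neural list to at most 660.4 CPM and the gut and pancreas list to at most 512 CPM. The Hox genes, which record body position elsewhere, had no tested member among 26, and 24 of them had no count in any library. The region of each culture rests on its label. Lists of large-duct and small-duct genes, the nearest check of it here, were split in direction, as given below.

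No gene separated the 2 regions at an adjusted p under 0.05. edgeR's quasi-likelihood test with each mouse as a block called 0 of 15014 genes (0%), with a smallest Benjamini-Hochberg adjusted p of 0.9995. At an unadjusted p under 0.05 it listed 655 genes (4.36%), of which 236 were higher (1.57%) and 419 lower (2.79%) in hilar cultures. DESeq2 and limma-voom with the same block also called 0. The 655 genes became 285 without mouse 1221 and 272 without 1224, and 1163 without 1223 and 1061 without 1220. The median standard error (SE) of a log2 difference was 0.264. Every gene described below is therefore a value with its spread, and its rank by p is not a call.

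Genes with the same direction in every mouse formed a small share of the transcriptome. The log2 CPM difference, hilar minus peripheral, had 1 sign in all 6 pairs for 373 genes (2.48%), with 168 higher in hilar (1.12%) and 205 lower (1.37%). This split turned to 201 higher and 170 lower with DESeq2 size factors and to 197 and 159 with a filter of 1 CPM in 6 libraries. Signs drawn at random in 6 pairs would give a share no smaller than 2.48%. The 373 genes are therefore a description and not a regional signature. All 6 hilar cultures lay above all 6 peripheral cultures for 8 genes (0.0533%) and below them for 9 (0.0599%). The fitted differences of WT and Ndr had the same sign for 7761 genes (51.7%), 3606 higher in both (24%) and 4155 lower in both (27.7%). Across genes, which are not independent replicates, the 2 genotypes' differences had a Pearson r of 0.134 and a Spearman rho of 0.0759. No library enters both of these estimates. With 1 mouse left out and 5 pairs asked for 1 sign, the genes higher and lower numbered 284 and 200 without 1221, 628 and 729 without 1223 and 586 and 631 without 1225. They numbered 269 and 319 without 1219 and 221 and 241 without 1224, and without 1220 they came to 1518, of which 689 were lower.

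**Figure D1:**
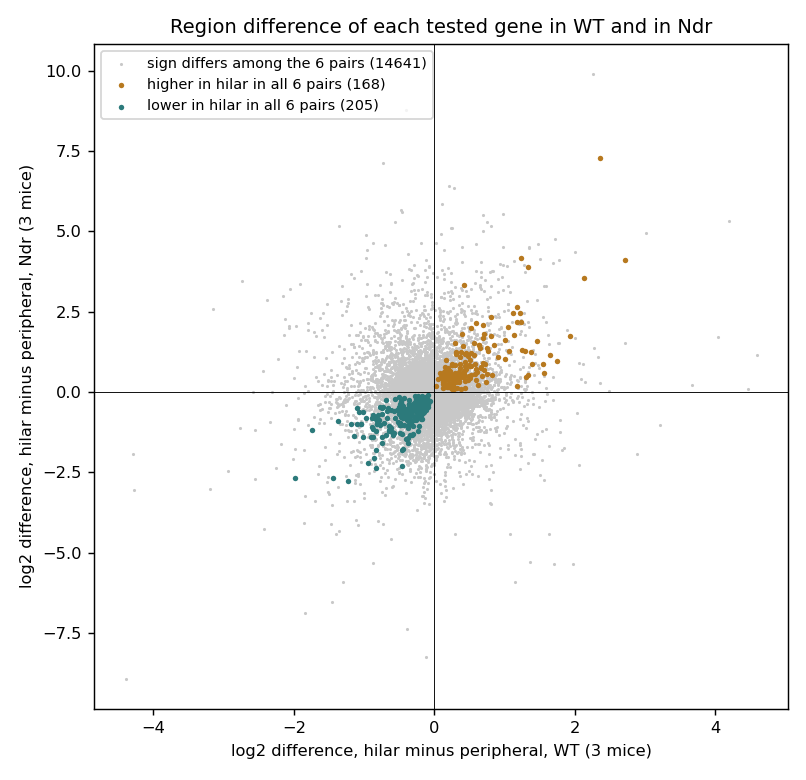
Each point is 1 tested gene, with the log2 difference (hilar minus peripheral) in the 3 WT mice on the x axis and in the 3 Ndr mice on the y axis. The 168 genes higher and the 205 genes lower in hilar cultures of all 6 mice are coloured, and they lie within a cloud that spreads over all 4 quadrants.

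The 6 mice did not share a single regional profile. Of the 15 correlations between the pair differences of any 2 mice, taken over genes, 8 were positive and 7 negative, from -0.43 to 0.51 with a mean of 0.038. Mice 1221, 1220 and 1224 went together, with r of 0.48, 0.51 and 0.44 between them, and they include both genotypes. Mouse 1223 ran against 1220 (r = -0.43) and against 1221 (r = -0.31), a mouse of its own genotype derived on the same day. Its closest partner was the Ndr mouse 1219, at r = 0.27.

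**Figure D2:**
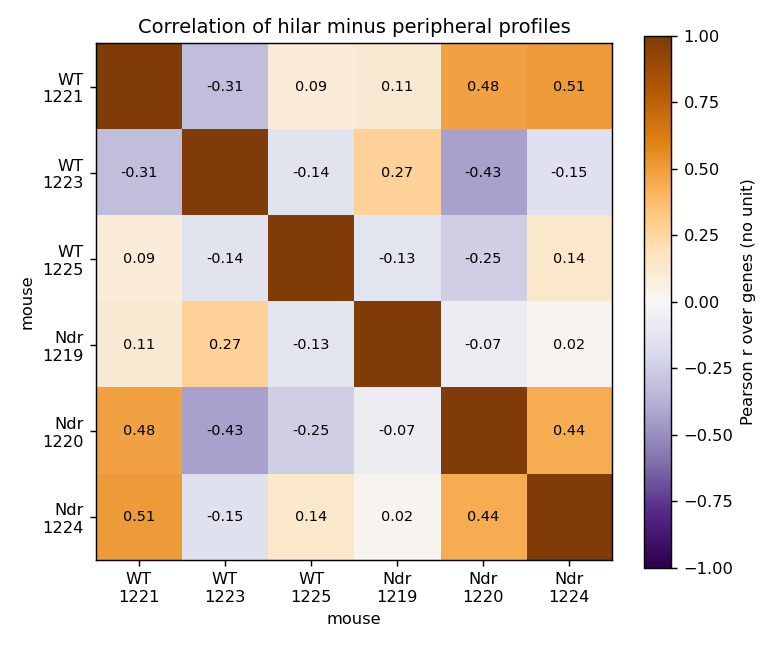
Both axes list the 6 mice, and each cell gives Pearson's r, over 15014 genes, between the hilar minus peripheral log2 differences of 2 mice. The cells joining 1221, 1220 and 1224 hold 0.44 to 0.51, while 1223 has negative values with 1221, 1225, 1220 and 1224.

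The size of the regional difference also varied among animals. The pair differences had an SD over genes of 0.654, 0.773 and 0.756 in the WT mice and of 0.986, 1.38 and 0.972 in the Ndr mice, all on the log2 scale. A difference of more than 1 log2 unit was seen for 9.21%, 14.3% and 13.7% of genes in the WT pairs and for 26.1%, 34.6% and 17% in the Ndr pairs. All 3 Ndr values lay above all 3 WT values in both measures. At an unadjusted p under 0.05, 1270 genes (8.46%) were listed in Ndr, 563 of them higher (3.75%) and 707 lower (4.71%) in hilar cultures. In WT 72 genes (0.48%) were listed, 24 higher (0.16%) and 48 lower (0.32%). edgeR called 0 genes in either genotype and 0 for the difference between them, where 413 genes (2.75%) had an unadjusted p under 0.05, 234 with the higher value in Ndr (1.56%) and 179 with the lower (1.19%). DESeq2 called 346 genes in Ndr, 1 in WT (Smoc1, a matricellular protein, named after its value was seen) and 23 for the difference between them. Without mouse 1219 the genes at an unadjusted p under 0.05 numbered 2385 in Ndr and without 1224 they numbered 796. In WT they numbered 197 without mouse 1223, and 158 and 167 without the Ndr mice 1219 and 1220, whose spread the fit shares. For the difference between genotypes they ranged from 142 without 1225 and 257 without 1220 to 1581 without 1219.

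Jag1 had no shared direction among the mice. In WT mice it stood at 186, 99.6 and 73.1 CPM in hilar and 94.5, 179 and 110.1 CPM in peripheral cultures, and in Ndr mice at 89.4, 196 and 139 CPM and 154, 80.4 and 73.7 CPM. Hilar was the higher culture in 3 of 6 pairs (mice 1221, 1220 and 1224) and the regions overlapped. Over both genotypes the means were 131 ± 51.8 CPM in hilar and 115 ± 42.4 CPM in peripheral cultures (SD, n = 6; log2 0.16, SE 0.354). The Ndr allele leaves the transcript in place, so this level is no check of genotype.

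Among genes higher in the hilar culture of every mouse, the smallest p belonged to Hspb8, a small heat shock protein that delivers misfolded proteins to autophagy. Hspb8 (ENSMUSG00000041548) stood at 7.93, 17.6 and 24.2 CPM in WT hilar against 6.22, 7.18 and 5.72 CPM in WT peripheral cultures. In the Ndr mice it stood at 10.4, 4.7 and 9.58 against 4.34, 1.51 and 4.48 CPM. The hilar culture was higher by log2 0.34 to 2.04 within pairs, while the 2 regions overlapped across mice because mouse 1220 was low in both. The means were 12.4 ± 7.19 and 4.91 ± 1.98 CPM (log2 1.28, SE 0.264, edgeR adjusted p = 0.9995).

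F730043M19Rik, a RIKEN transcript, was the only one of the 12 named hilar-high genes whose regions did not overlap. Of all genes tested 0.0533% lay so, and choosing by 1 sign and small p favours such genes. It stood at 21, 10.04 and 8.16 CPM in WT hilar and 12.2, 13.8 and 12.5 CPM in Ndr hilar cultures. The 6 peripheral cultures lay at 5.72 to 6.68 CPM, a narrow band below all hilar values. The fitted difference was log2 1.02 (SE 0.233), and it was 0.9996 in WT and 1.04 in Ndr.

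Several of the other hilar-high genes encode enzymes of small-molecule metabolism, a grouping that was not tested. Ggact, which breaks down gamma-glutamylamines, ranged over 22.4 to 44.1 CPM (median 27.3) in hilar and 12.5 to 24.1 CPM (median 17.4) in peripheral cultures, a log2 difference of 0.71 (SE 0.163). Uros, an enzyme of heme synthesis, ranged over 11.1 to 27.5 CPM in hilar and 6.22 to 17.7 CPM in peripheral cultures (log2 0.80, SE 0.195). Cdo1, the cysteine dioxygenase that starts cysteine breakdown, ranged over 1.38 to 10.3 and 0.849 to 4.66 CPM (log2 1.51, SE 0.429). Nudt19, which hydrolyses coenzyme A, ranged over 34 to 76.5 and 28.1 to 47.9 CPM (log2 0.46, SE 0.142). In each of these the regions overlapped across mice while every mouse had the higher value in its hilar culture, which was the rule for choosing them.

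Ttr, the transthyretin carrier of thyroid hormone and a gene of the hepatocyte list, had the widest fitted gap of the 12. It stood at 5, 7.72 and 2.01 CPM in WT hilar and 2.6, 3.59 and 0.53 CPM in WT peripheral cultures. In Ndr mice it stood at 25, 51.3 and 52 CPM in hilar and 21.4, 8.3 and 4.3 CPM in peripheral cultures. The Ndr cultures held more Ttr than the WT cultures of the same region in all cases, and the pair difference ran from 0.22 in mouse 1219 to 3.53 in mouse 1224. The fitted log2 difference was 1.71 (SE 0.46).

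The remaining hilar-high genes were regulators and transcripts of less known role. Tbpl1, a relative of the TATA-binding protein, ranged over 52.4 to 94.5 CPM in hilar and 31.7 to 71.9 CPM in peripheral cultures (log2 0.67). Gadd45a, a growth arrest gene induced by stress, ranged over 39.3 to 58.2 and 21.6 to 40.3 CPM (log2 0.62). Zfp983, the predicted gene Gm6736 (whose reads may be shared with similar genes) and A230050P20Rik had log2 differences of 0.87, 0.81 and 1.27. The Gm6736 pair of mouse 1225 was nearly level (log2 0.06). The A230050P20Rik value leans on mouse 1220, whose pair differed by 2.93 against at most 1.23 in the others.

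**Figure D3:**
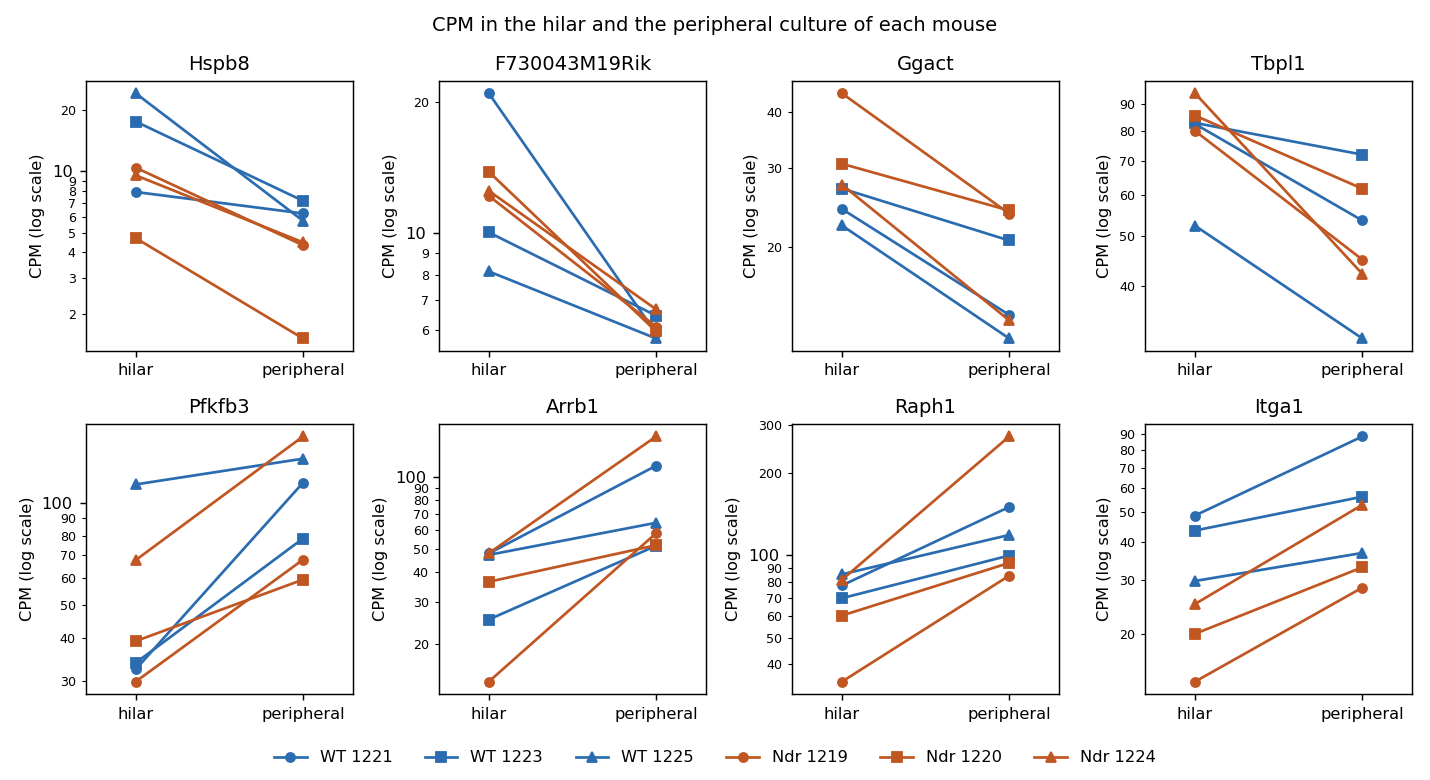
Each panel gives 1 gene's CPM (log scale) in the hilar and the peripheral culture of each mouse, joined by a line, for the 4 hilar-high genes (top) and the 4 peripheral-high genes (bottom) of smallest p. Every line slopes the same way within a panel, which was the rule for choosing them. Arrb1 and F730043M19Rik alone among the 8 have regions that do not overlap, against 0.113% of all genes.

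On the peripheral side, the smallest p belonged to Pfkfb3, which makes the allosteric activator of phosphofructokinase and so speeds glycolysis. Pfkfb3 (ENSMUSG00000026773) stood at 32.4, 33.8 and 113 CPM in WT hilar and 114, 78.5 and 135 CPM in WT peripheral cultures. In Ndr mice it stood at 29.8, 39.2 and 67.8 CPM and 68, 59.4 and 157 CPM. Peripheral cultures were higher in each pair, and the WT hilar culture of mouse 1225 was above some peripheral cultures of other mice. The Ndr hilar culture of mouse 1224 (67.8 CPM) was also above the peripheral culture of mouse 1220 (59.4 CPM). The means were 52.7 ± 32.7 CPM in hilar and 102 ± 39.3 CPM in peripheral cultures (log2 -1.05, SE 0.218, edgeR adjusted p = 0.9995). The fitted difference was -1.10 in WT and -1.0 in Ndr.

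Arrb1 and Tmtc2 were lower in all 6 hilar cultures than in any peripheral culture. Of all genes tested 0.0599% lay so, and the rule for naming genes favours them. Arrb1, which encodes beta-arrestin 1, a switch that desensitises G-protein-coupled receptors, stood at 47.9, 25.3 and 47.2 and 13.9, 36.4 and 48 CPM in hilar cultures of WT and Ndr mice. In the peripheral cultures it stood at 112, 51.6 and 64.3 and 58.2, 51.9 and 148 CPM (log2 -1.14, SE 0.241). Tmtc2, an enzyme that adds mannose to cadherins in the endoplasmic reticulum, ranged over 27.6 to 41.8 CPM in hilar and 44.8 to 64.9 CPM in peripheral cultures (log2 -0.56, SE 0.142). The gap between the regions was narrow for Tmtc2. Its pair differences were -0.52, -0.40 and -0.30 in WT and -0.73, -0.65 and -0.75 in Ndr mice.

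Genes of cell attachment and the leading edge were also among the 12 peripheral-high genes, again a grouping that was not tested. Raph1, or lamellipodin, which feeds actin polymerisation at the cell front, stood at 77.6, 69.7 and 85.2 and 34.5, 60.2 and 81.3 CPM in hilar cultures and at 150.1, 99.8 and 119 and 84.2, 93.7 and 272 CPM in peripheral cultures. Peripheral 1224 was the highest of the 12 libraries for Raph1. Itga1, the integrin alpha 1 subunit that binds collagen, ranged over 13.9 to 48.8 CPM in hilar and 28.3 to 88.6 CPM in peripheral cultures. Gpc6, a cell-surface heparan sulfate proteoglycan, ranged over 10.1 to 17.6 and 13 to 38.7 CPM. The fitted log2 differences were -0.93 (SE 0.205), -0.73 (SE 0.167) and -0.85 (SE 0.198).

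Hif3a, a member of the hypoxia-inducible factor family, had the widest fitted gap of the peripheral-high genes at a low level. It stood at 0.366, 1.24 and 5.78 CPM in WT hilar and 5.38, 1.32 and 21.6 CPM in WT peripheral cultures, and at 0.774, 0.392 and 0.638 and 3.51, 1.23 and 10.6 CPM in Ndr mice. The difference was wide in mice 1221 and 1224 and close to 0 in mouse 1223 (log2 -0.08). The fit gave log2 -2.31 (SE 0.542).

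Of the remaining 5 peripheral-high genes, Spry4 restrains receptor tyrosine kinase signalling and Rap1gap2 switches off the small GTPase Rap1. Spry4 ranged over 1.93 to 7.53 CPM in hilar and 4.34 to 21.6 CPM in peripheral cultures (log2 -1.02, SE 0.253). Its pair in mouse 1223 was nearly level (log2 -0.04). Rap1gap2 ranged over 3.87 to 19.7 and 6.98 to 38.1 CPM (log2 -1.13, SE 0.279). Zfp395, Myo15b and the deubiquitinase gene Mindy2 had log2 differences of -0.91, -0.92 and -0.76. The Myo15b pair of mouse 1225 was nearly level (log2 -0.07). Over the 24 genes named by p, the size of the log2 difference had a median of 0.92, from 0.46 to 2.31, and all 24 had an edgeR adjusted p of 0.9995.

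Of the 32 lists, hypoxia and glycolysis held the most members at an unadjusted p under 0.05. These are genes that hypoxia-inducible factors switch on when oxygen is short, among them the enzymes that turn glucose into lactate. Of its 30 tested members 29 were lower in hilar cultures, against 51.1% of all genes tested, and the median log2 difference was -0.81 against -0.0068 over all genes. An unadjusted p under 0.05 was reached by 17 members, all lower, which is 56.7% of the list where 2.79% of all genes reached it in that direction. None passed edgeR's adjusted p. The same 29 members were lower in both genotypes, with a median of -0.56 in WT and -1.08 in Ndr, and Pfkfb4, a relative of Pfkfb3, was higher in both. The members are coregulated, and they were listed with earlier results of these data known.

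That list did not behave alike in all mice. Its median pair difference was -1.18, 0.11 and -0.30 in the WT mice and 0.06, -1.69 and -1.40 in the Ndr mice. In mouse 1221 all 30 members were lower in the hilar culture, in 1224 it was 29, in 1220 it was 27 and in 1225 it was 26. In mouse 1223 only 11 were lower and in mouse 1219 only 14, so those 2 pairs lacked the shift. Without mouse 1221 the members at an unadjusted p under 0.05 numbered 5 in place of 17, without 1224 they numbered 7 and without 1220 they numbered 11. The count of members lower in hilar was 29 in each of those fits.

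**Figure D4:**
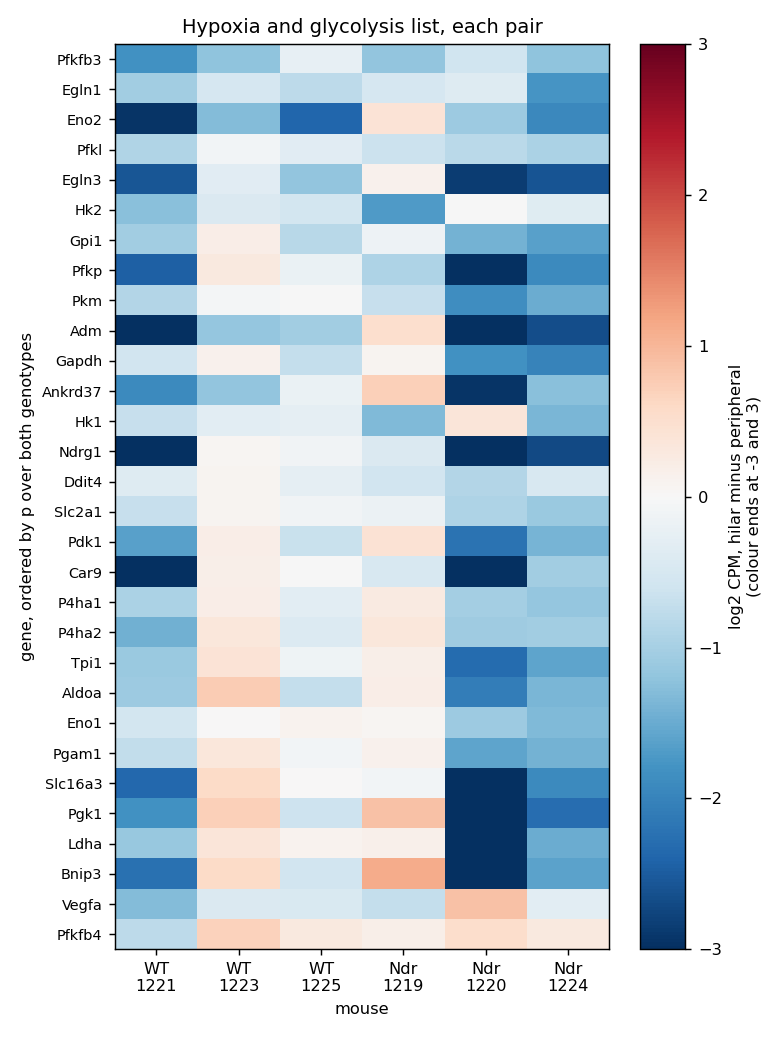
Rows are the 30 members of the hypoxia and glycolysis list in order of p, columns are the 6 mice, and colour is the log2 CPM difference, hilar minus peripheral (blue lower, red higher in hilar, ending at -3 and 3). Mice 1221, 1220 and 1224 are blue over most rows, with list medians of -1.18, -1.69 and -1.40, while 1223 and 1219 hold both colours.

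Within the list, 5 genes were lower in the hilar culture of all 6 mice, which is 16.7% of it where 1.37% of all genes were so. Besides Pfkfb3 these were Egln1, the oxygen sensor that marks hypoxia-inducible factors for destruction, Pfkl, the liver phosphofructokinase, Hk2, a hexokinase, and Pkm, pyruvate kinase. Egln1 stood at 62, 49.4 and 104 CPM in WT hilar and 128, 70.1 and 179 CPM in WT peripheral cultures. In Ndr mice it stood at 47.6, 48.9 and 49.5 and 67.7, 63.8 and 170.4 CPM, and the hilar values of 5 mice lay below all peripheral values but hilar 1225 did not. The fit gave log2 -0.83 (SE 0.209).

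Pfkl stood at 298, 287 and 456 CPM in WT hilar and 559, 302 and 582 CPM in WT peripheral cultures, and at 231, 178 and 286 and 362, 310.3 and 554 CPM in Ndr mice (log2 -0.62, SE 0.181). Hk2 stood at 59.8, 72.4 and 94.8 CPM in WT hilar and 142, 98.4 and 139 CPM in WT peripheral cultures, and at 23.4, 35.7 and 60.5 and 76.2, 36.1 and 77.7 CPM in Ndr mice (log2 -0.72, SE 0.237). The Hk2 pair of mouse 1220 was level. Pkm averaged 1299 ± 682 CPM in hilar and 2189 ± 612 CPM in peripheral cultures, with nearly level pairs in mice 1223 and 1225. In all, 205 genes (1.37%) were lower in the hilar culture of all 6 mice. Outside the fixed list these included Mxi1, an antagonist of Myc, Gys1, glycogen synthase, and Pgm1, phosphoglucomutase. They were picked from the 205 after their values were seen, so they add no support to the list. Their log2 differences were -0.68, -0.74 and -0.88.

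Hypoxia-inducible factors bind a short DNA core, and the promoters of the 4 list members that the naming rule picks show where its letters fall. Pkm, the fifth with 1 sign in all pairs, is not shown. The sequences are the 250 bases before the start of transcription from RefSeq (GRCm38.p6), 5′ to 3′ on the gene's strand, which is the minus strand in all 4. Capitals mark ACGTG or GCGTG on either strand, so that CACGT and CACGC also count, and overlapping matches run together. Hk2 lies at chr6:82774455-82774704, Pfkl at chr10:78009808-78010057, Pfkfb3 at chr2:11502091-11502340 and Egln1 at chr8:124949255-124949504, and for Pfkfb3 the one of 2 listed starts with more matches is shown.
Hk2: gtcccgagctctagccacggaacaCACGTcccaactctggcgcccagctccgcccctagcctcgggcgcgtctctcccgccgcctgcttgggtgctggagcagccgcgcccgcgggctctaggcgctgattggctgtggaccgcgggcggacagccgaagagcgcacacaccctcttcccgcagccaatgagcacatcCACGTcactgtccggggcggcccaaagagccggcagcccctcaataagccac
Pfkl: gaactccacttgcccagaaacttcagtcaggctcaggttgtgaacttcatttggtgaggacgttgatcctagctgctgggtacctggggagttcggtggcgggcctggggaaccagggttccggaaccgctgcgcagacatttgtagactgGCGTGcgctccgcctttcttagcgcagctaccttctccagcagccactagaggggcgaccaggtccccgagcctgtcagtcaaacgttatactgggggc
Pfkfb3: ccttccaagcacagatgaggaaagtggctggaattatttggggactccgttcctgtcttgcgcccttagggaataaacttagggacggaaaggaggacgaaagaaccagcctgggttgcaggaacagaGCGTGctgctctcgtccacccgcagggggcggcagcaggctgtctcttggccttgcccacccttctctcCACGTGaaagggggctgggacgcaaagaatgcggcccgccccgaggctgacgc
Egln1: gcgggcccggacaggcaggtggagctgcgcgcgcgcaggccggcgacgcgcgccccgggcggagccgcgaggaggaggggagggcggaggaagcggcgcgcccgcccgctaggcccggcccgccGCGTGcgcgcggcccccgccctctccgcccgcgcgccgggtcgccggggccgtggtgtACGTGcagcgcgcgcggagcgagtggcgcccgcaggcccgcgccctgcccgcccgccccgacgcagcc

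Counting the start as position 0, the matches begin at -226 and -52 in Hk2, at -99 in Pfkl, at -122, -53 and -52 in Pfkfb3 and at -126 and -68 in Egln1. The pair at -53 and -52 in Pfkfb3 is a single palindrome read on both strands. Of the 29 list members with a promoter entry, 26 (89.7%) held at least 1 match, against 61.6% of the 9993 tested genes with an entry and 41.5% of all 27025 genes in the table. A match is a description of letters and says nothing of binding in these cultures.

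Proliferation genes pointed to the periphery in 5 mice and to the hilum in 1. Of 44 tested members 44 were lower in hilar cultures in the fit, with a median of -0.96, and 7 had an unadjusted p under 0.05, where 2.79% of all genes had one in that direction. The median pair difference was -0.50, -1.23 and 1.33 in WT and -0.55, -2.67 and -1.51 in Ndr mice. In mouse 1225 all 44 were higher in the hilar culture. Top2a, the topoisomerase of dividing cells, stood at 108, 82 and 508 CPM in WT hilar and 190.3, 225 and 239.5 CPM in WT peripheral cultures, and at 89.4, 51.9 and 60.1 and 224, 323 and 223 CPM in Ndr mice. Hilar 1225 was thus the highest of all 12 libraries and the other 5 hilar cultures lay below all 6 peripheral ones. The list median moved between -1.37 and -0.53 as each mouse was left out. In bulk RNA, fewer cells of a kind and less RNA per cell cannot be told apart.

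Cholesterol synthesis genes followed the same split between mice. All 24 tested members were lower in hilar cultures in the fit (median -0.42), 5 of them at an unadjusted p under 0.05 against 2.79% of all genes. In mouse 1225 all 24 were higher in the hilar culture, and in 1219, 1220 and 1224 all 24 were lower. The WT median was 0.03 and the Ndr median -0.9998, and edgeR called no gene for the difference between genotypes. Hmgcs1, which commits acetyl units to the pathway, stood at 204, 248 and 649 and 206, 192 and 191 CPM in hilar cultures and at 290.1, 285 and 455 and 457, 462 and 422 CPM in peripheral cultures. Srebf2, the transcription factor that drives the pathway, averaged 313 ± 95 CPM in hilar and 385 ± 68.8 CPM in peripheral cultures. Leaving out mice moved the list median between -0.61 and -0.22.

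Mitochondrially encoded transcripts, a sign of RNA quality as well as of respiration, also leaned to the periphery. All 13 were lower in hilar cultures in the fit (median -0.86), and none had an unadjusted p under 0.05. The median lay between -1.2 without mouse 1224 and -0.51 without 1219. Their sum ranged over 5486 to 8429 CPM in WT hilar and 8566 to 23176 CPM in WT peripheral cultures. In Ndr mice it ranged over 7820.4 to 18202 and 6469.6 to 44470.4 CPM. The WT regions did not overlap, and the Ndr regions did. The median pair difference was 0.33 in mouse 1220 and 0.81 in 1224 and below 0 in the other 4. In mouse 1219, where it was -2.36, mt-Co1 stood at 2636 CPM in the hilar and 17844 CPM in the peripheral culture. Its part in the other differences was not tested.

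Primary cilium genes leaned the other way. The primary cilium is the single antenna with which cholangiocytes sense bile flow. Of 36 tested members 27 were higher in hilar cultures (median 0.22), against 48.9% of all genes, and 6 had an unadjusted p under 0.05, where 1.57% of all genes had one in that direction. In mice 1221 and 1220 it was 32 of 36 in each, and in 1224 it was 29. Mouse 1223 had 7 of 36 higher, 1225 had 17 and 1219 had 16. The fitted median was 0.03 in WT and 0.45 in Ndr mice. Both genotypes had the higher hilar value for 17 of the 36, against 24% of all genes. The list median was 0.12 without mouse 1220 and 0.35 without 1223. Tmem216, a protein of the ciliary transition zone, was higher in all 6 hilar cultures than in their partners, at 14.1, 9.89 and 11.2 and 22.1, 17 and 13.2 CPM against 7.23, 8.73 and 9.75 and 9.71, 11.8 and 9.88 CPM (log2 0.58, SE 0.209).

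Genes of the unfolded protein response, which clears misfolded protein from the endoplasmic reticulum, were higher in hilar cultures for 22 of 25 members, with a median of 0.25. Over all genes 48.9% were higher. An unadjusted p under 0.05 was reached by 2 of the 25, both higher, against 1.57% of all genes. The list median was above 0 in 4 mice and below 0 in 1221 and 1220. Pdia4, a disulfide isomerase of that compartment, was higher in each hilar culture, by log2 0.01, 0.01 and 0.12 in WT and 0.48, 0.38 and 0.38 in Ndr mice. The WT pairs were nearly level. It averaged 308 ± 20.6 CPM in hilar and 263 ± 25.8 CPM in peripheral cultures.

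**Figure D5:**
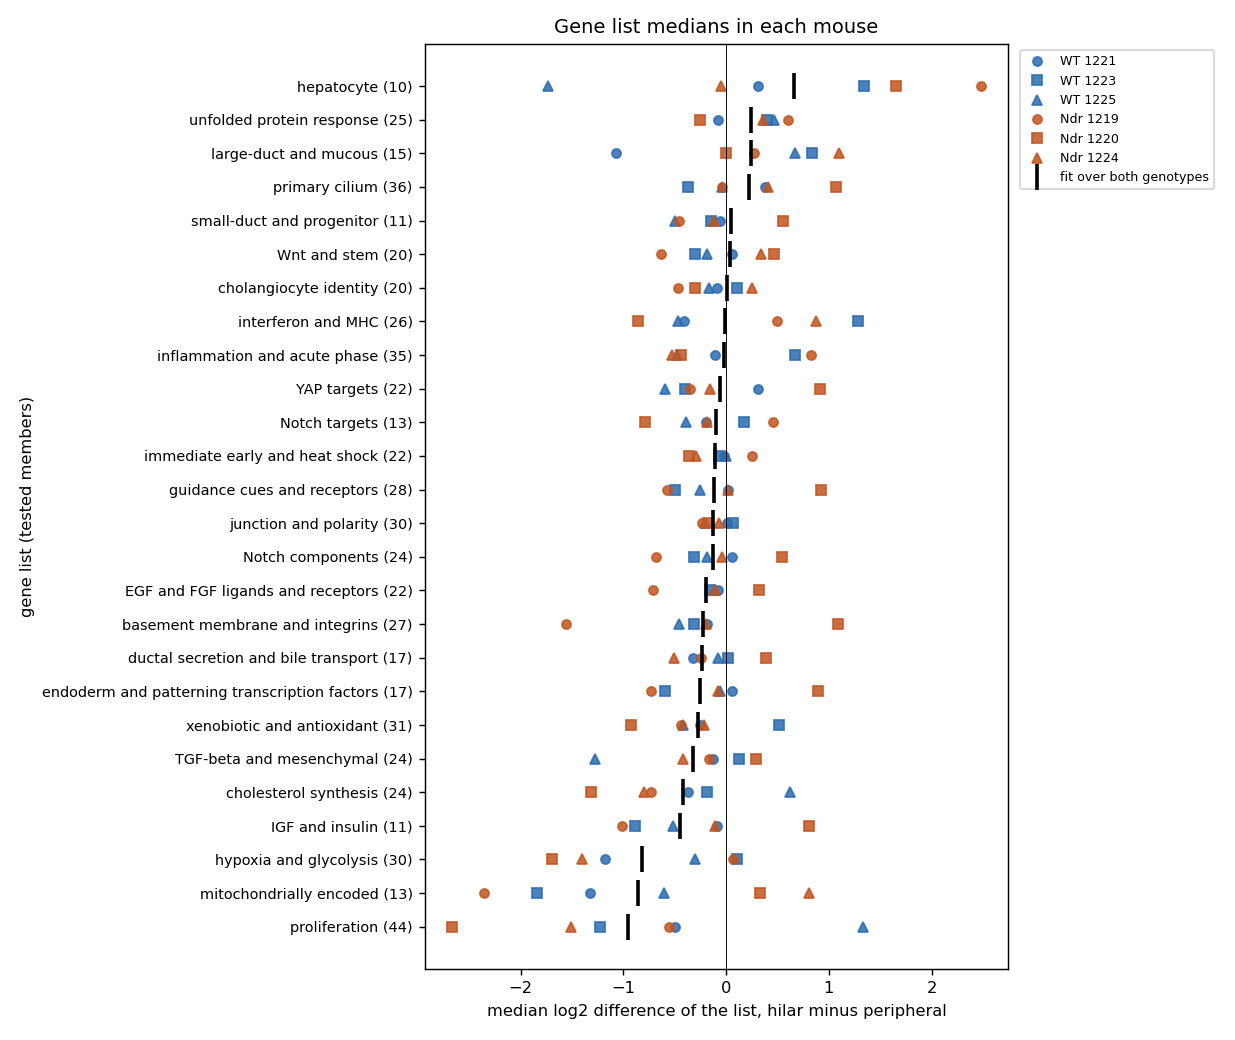
For each gene list with at least 10 tested members, points give the median log2 difference (hilar minus peripheral) in each mouse and the black bar the median of the fit over both genotypes. The hypoxia and glycolysis bar stands at -0.81 and the proliferation bar at -0.96, and no list has its 6 points on 1 side of 0.

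In the Notch pathway, the ligand Jag2 was the 1 component of 24 tested with the same direction in every mouse. Of all genes 2.48% had 1 direction in every mouse, so Jag2 is a value and not a result about the pathway. Jag2 (ENSMUSG00000002799) was lower in all 6 hilar cultures than in their partners, at 24.2, 31.7 and 50.9 against 40.6, 34.7 and 60.3 CPM in WT and 21.6, 19.99 and 32.8 against 78.7, 77.8 and 61.4 CPM in Ndr mice. The 3 Ndr hilar values lay below the 3 Ndr peripheral values, and the WT regions overlapped. How many of all genes split so within Ndr was not counted. The means were 30.2 ± 11.4 and 58.9 ± 18.3 CPM (log2 -0.97, SE 0.286, edgeR adjusted p = 0.9995). The fitted difference was -0.37 in WT and -1.58 in Ndr, and edgeR did not call the difference between these. Of the 24 tested components 18 were lower in hilar cultures (median -0.13), against 51.1% of all genes. Only Jag2, 1 of the 24, had an unadjusted p under 0.05, where 2.79% of all genes had one in that direction. Without mouse 1219 the list median was 0.023, of the other sign.

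Notch target genes did not share a direction. Of 13 tested members 9 were lower in hilar cultures (median -0.10), against 51.1% of all genes. Of these, 2 had an unadjusted p under 0.05 against 2.79% of all genes, and without mouse 1225 the list median was 0.0043. Ccnd1, cyclin D1, stood at 582, 788 and 1112 CPM in WT hilar and 930.0, 588 and 1204 CPM in WT peripheral cultures, and at 396, 441 and 594 and 1305, 1091 and 1199.8 CPM in Ndr mice. Its 3 Ndr hilar values lay below the 3 Ndr peripheral values and its WT regions overlapped. For Ccnd1 too, edgeR did not call the difference between genotypes. Id2, an inhibitor of helix-loop-helix factors, averaged 501 ± 216 and 500.4 ± 122 CPM and was higher in hilar cultures of the 3 Ndr mice and lower in those of the 3 WT mice.

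Lists that would set large ducts apart from small ones were split in direction. The 20 cholangiocyte identity genes split 10 to 10 (median 0.01), and among the most abundant, Spp1, or osteopontin, averaged 5699 ± 2623 and 4684 ± 3001 CPM and Krt18, a keratin of simple epithelia, 2560.5 ± 1979.9 and 2592 ± 946 CPM. Of 15 tested large-duct and mucous genes 9 were higher in hilar cultures (median 0.24), against 48.9% of all genes, and none had an unadjusted p under 0.05. Without mouse 1223 that median was -0.1. Muc1, a membrane mucin, averaged 321 ± 171 and 316 ± 99.3 CPM, and Lgals4, a galectin, 154 ± 142 and 408 ± 549 CPM, with peripheral 1220 at 1504 CPM.

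Of the 11 small-duct and progenitor genes 6 were higher in hilar cultures, against 48.9% of all genes, with a median of 0.05. That median changed sign in 4 of 13 alternatives, among them the fits without mouse 1221, 1220 or 1224, and within pairs the list median was above 0 in mouse 1220 alone (0.55). Cd44, a hyaluronan receptor, was lower in all 6 hilar cultures than in their partners, though by less than 0.01 log2 units in mice 1223 and 1220, whose pairs were level. It stood at 1398, 1353 and 1061 and 1067, 694 and 973 CPM in hilar cultures of WT and Ndr mice and at 1708, 1360.5 and 1724 and 1624, 695 and 2047 CPM in peripheral cultures (log2 -0.45, SE 0.216). Ano1, a calcium-gated chloride channel of ductal secretion, was lower in each hilar culture as well, at 194 to 325 CPM against 266 to 722 CPM (log2 -0.64, SE 0.25). The secretion and transport list as a whole had 11 of 17 members lower, against 51.1% of all genes. Its median was -0.24, and -0.064 without mouse 1224. Of the endoderm and patterning transcription factors 11 of 17 were lower, against the same 51.1%. Their median was -0.25, and -0.062 without mouse 1219. In mouse 1220 the endoderm list had a median of 0.90.

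Signalling lists held single genes of 1 direction within mixed groups. Wnt5a, a Wnt ligand of the non-canonical branch, was higher in the hilar culture of every mouse, at 5.67, 8.19 and 4.9 and 7.45, 6.4 and 5.75 CPM against 5.55, 1.08 and 2.44 and 2.17, 0 and 0.0915 CPM in peripheral cultures. The gap was near 0 in mouse 1221 and the peripheral culture of mouse 1220 held no Wnt5a count. The fit gave log2 2.48 (SE 0.881), a value that depends on the count added for cultures at 0. The Wnt and stem list split 11 higher and 9 lower. Among epidermal and fibroblast growth factor genes 13 of 22 were lower, against 51.1% of all genes. Tgfa, a ligand of the EGF receptor, lay at 32.6 to 73.9 CPM in hilar and 63.5 to 117 CPM in peripheral cultures, beside Spry4 above.

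Among guidance genes 18 of 28 were lower in hilar cultures, against 51.1% of all genes, with 4 at an unadjusted p under 0.05 against 2.79% of all genes. Plxnd1, a semaphorin receptor, ranged over 5.22 to 16.6 and 10.7 to 36 CPM (log2 -0.88, SE 0.291), and Epha4, an ephrin receptor, over 44.1 to 132 and 62.1 to 168 CPM (log2 -0.60, SE 0.183). Both were lower in the hilar culture of each mouse, as were 1.37% of all genes. The list median was -0.12 and 0.01 without mouse 1219.

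Matrix and junction genes were mostly lower in hilar cultures in the fit, but not in every mouse. Over all genes 51.1% were lower. Basement membrane and integrin genes were lower in hilar cultures for 20 of 27 members (median -0.23), 3 at an unadjusted p under 0.05 against 2.79% of all genes. In mouse 1219 that list had a median of -1.56, with 25 of 27 lower, and in mouse 1220 a median of 1.09, with 20 of 27 higher. The fitted median was -0.068 without 1219 and -0.50 without 1220. Junction and polarity genes were lower for 23 of 30 (median -0.13), with list medians just above 0 in mice 1221 and 1223. At such a p 1 was higher and 1 lower, against 1.57% and 2.79% of all genes.

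Over all genes 51.1% were lower, and 2.79% were lower at an unadjusted p under 0.05. TGF-beta and mesenchymal genes were lower for 17 of 24 (median -0.33), 3 at such a p. The list median was -1.28 in mouse 1225 and above 0 in mice 1220 (0.29) and 1223 (0.13), and the fitted median was -0.12 without 1225 and -0.46 without 1220. Xenobiotic and antioxidant genes were lower for 23 of 31 (median -0.27), 3 at such a p. In mouse 1223, though, 27 of 31 were higher, and the fitted median was -0.097 without mouse 1220. IGF and insulin genes were lower for 8 of 11 (median -0.45), and 1 was higher at such a p, against 1.57% of all genes. Their list median was 0.81 in mouse 1220, and the fitted median was -0.11 without mouse 1219.

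Other lists had fitted medians near 0 while single mice lay well to either side. Interferon and antigen presentation genes had a fitted median of -0.01. In mouse 1223 their median was 1.28, with 24 of 26 higher in the hilar culture, and in mouse 1220 it was -0.86, with 23 of 26 lower. Leaving out 1223 gave -0.31 and leaving out 1221 gave 0.26. YAP targets (fitted median -0.06) were higher for 19 of 22 in mouse 1221 and lower for 20 of 22 in mouse 1225, and the median was 0.072 without mouse 1219. Inflammation genes had a fitted median of -0.02, from -0.16 without mouse 1219 to 0.14 without 1225, and early response and heat shock genes one of -0.11, from -0.15 without 1223 to 0.018 without 1220.

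Markers of other cell types differed in level. Of the hepatocyte list 10 of 24 genes passed the count filter. Of these, 7 were higher in hilar cultures (median 0.66), against 48.9% of all genes. Ttr alone was higher in all 6 pairs, against 1.12% of all genes. The median was 0.15 without mouse 1219 and 1.13 without 1225, and in mouse 1225 it was -1.73, with 9 of 10 lower in the hilar culture. The list's summed level, most of it Trf, overlapped between regions in WT and lay higher in hilar cultures in Ndr mice, at 2010.3 to 4514 against 605 to 1304 CPM. Of the fibroblast and stellate list 4 of 17 passed the filter, of the endothelial list 1 of 14, of the immune list 2 of 14, of the mesothelial and neural list 4 of 12 and of the gut and pancreas list 5 of 22. Msln, the mesothelin gene, averaged 270.5 ± 217 CPM in hilar and 370.1 ± 183 CPM in peripheral cultures.

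For the difference between genotypes, the 4 genes that the naming rule picks by p had regional differences of opposite direction in WT and Ndr mice. The rule favours such genes, since it ranks by the difference between genotypes. Of all genes only 51.7% had the same sign in both. C4b, complement component C4, stood at 65.5, 18.7 and 0.126 CPM in WT hilar and 81.9, 32.3 and 1.17 CPM in WT peripheral cultures, a lower hilar value in each of 3 mice. In Ndr mice it stood at 18.3, 8.1 and 63.3 CPM in hilar and 0.207, 0.283 and 4.76 CPM in peripheral cultures, a higher hilar value in each of 3. C4b is nearly identical to its neighbour C4a, so how reads were split between them is uncertain. The difference between the genotypes' log2 values was 5.51 (SE 0.787, edgeR adjusted p = 0.9999). Its size rests in part on cultures with almost no C4b count. These were hilar 1225 at 0.126 CPM and peripheral 1219 and 1220 at 0.207 and 0.283 CPM. Sgsm1, a regulator of small GTPases, had log2 differences of 0.73 in WT and -2.30 in Ndr mice. Chpt1, which makes phosphatidylcholine, had -1.12 and 1.78, and Fgfr3, a fibroblast growth factor receptor, -0.48 and 1.78. Fgfr3 stood at 55.5, 67.8 and 221 CPM in Ndr hilar and 13.3, 16.5 and 92.7 CPM in Ndr peripheral cultures. DESeq2 put all 4 past its adjusted threshold for this difference and edgeR none of them.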

How the data were processed

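RNA-seq libraries of 12 organoid cultures from 6 mice were analysed from the deposited table of raw counts per gene (53700 identifiers), for which the submitters' processing notes name featureCounts and GRCm39. Which aligner, annotation release and strand setting were used is not given in the sources used here, so counts of overlapping, antisense and near-identical genes are uncertain. A second deposited table holds normalized signal per gene, and the same notes name DESeq2 1.34.0. It was used as an alternative only, with log2(value + 1). No single step was settled for the values of 1 WT peripheral library, so no reads were recovered from it.

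Counts were fitted in R 4.3.3 with edgeR 4.0.16 (filterByExpr by group, TMM, robust quasi-likelihood F test, Benjamini-Hochberg over 15014 genes, threshold 0.05). The pooled fit had mouse as a block and region as the term, with 5 residual degrees of freedom. A fit with region nested in genotype, with 4, gave the values in WT, in Ndr and their difference. CPM are on TMM-scaled library sizes and pair differences use log2 CPM with a prior count of 2. Means are ± SD over n = 6 cultures unless stated. Names came from GENCODE M21, which matched 52093 identifiers and left 28 tested genes without a symbol. Promoters came from RefSeq (GRCm38.p6), whose coordinates are not those of the files' build. The script was tested on simulated data.

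Hilar and peripheral cultures of a number come from the same animal per the labels, which is the ground for pairing. The correlation of their deviations from the group means was 0.333, -0.0624 and 0.45 in mice 1221, 1223 and 1225 and -0.314, -0.34 and 0.14 in 1219, 1220 and 1224. Derivation date and genotype are constant within a pair, so each pair value is also a within-date value. No 2 libraries held identical counts. The 24 genes named by p are the 12 in each direction with the smallest p among those with a symbol, 1 sign in all 6 pairs and at least 5 CPM in the higher region. From each list up to 4 members with 1 sign in all pairs are named, or else the 2 most abundant, and for the difference between genotypes the 4 of smallest p. Members and the 32 gene lists (778 symbols, 777 found in the file) were chosen with earlier results of these data known. A few genes that these rules name are not reported here. Alternatives were no block, DESeq2 size factors, other filters, DESeq2 1.42.0, limma-voom and limma-trend (limma 3.58.1), the normalized table, a prior count of 0.5 and leaving out each mouse.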

Additional observations from a re-analysis of the deposited data

Results flagged for a closer look

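Of 112 values tested over the 6 pairs, 7 had 1 mouse far from the other 5, and chance flags about 1 in 20. In mouse 1220 the hilar minus peripheral log2 difference of A230050P20Rik was 2.93, against 0.46 to 1.23 in the other mice, and that of Fn1, the fibronectin gene, was 3.42, against -1.66 to 0.23. In mouse 1224 Gadd45a differed by 1.42, against 0.33 to 0.72, and Gpc6 by -1.64, against -0.84 to -0.37. In mouse 1219 the chloride channel gene Ano1 differed by -1.89, against -0.77 to -0.18. In mouse 1225 Igfbp7, an IGF-binding protein gene, differed by -1.81, against 0.21 to 0.93. In mouse 1223 Itgb1, the integrin beta subunit, differed by 0.65, against -0.57 to -0.15.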

How the results depend on the processing

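The count of genes called over both genotypes was 0 in all 13 alternatives, with a smallest adjusted p of 0.0709 in DESeq2 and 0.786 in edgeR with no replicate block. Without the replicate block edgeR also called 0 genes in WT, in Ndr and for the difference between them. DESeq2 with the block called 1 gene in WT, 346 in Ndr (167 higher and 179 lower in hilar) and 23 for the difference between genotypes (19 and 4). limma-trend on the deposited normalized table called 14 genes in Ndr (13 and 1) and 2 for the difference (Fgg and Gfra1). With no filter on low counts edgeR called 1 gene in Ndr, C4b (adjusted p = 0.0392). With each mouse left out it called 0 to 1 in Ndr, the 1 being Cyp4a12a without 1221 and Ctse without 1219, and 0 to 1 for the difference (Cyp4a12a without 1221). These genes were named after their values were seen, and the cause was not tested.

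The 373 genes of 1 sign in 6 pairs became 462 to 1518 when only 5 pairs had to share it, which fewer pairs alone raises. Their split of 168 higher and 205 lower turned with the scaling or the filter: it was 201 and 170 with DESeq2 size factors and 197 and 159 with the stricter filter of 1 CPM in 6 libraries, and 170 and 201 in the normalized table. No setting moved the median log2 difference of all genes by more than 0.031. Depth limits genes near 1 CPM such as Hif3a. With 6 pairs the median SE was 0.264, and Hspb8, at log2 1.28 with an SE of 0.264, still had an edgeR adjusted p of 0.9995.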
